A study of Saccharomyces cerevisiae with 12 samples.

Results

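A set of 9 genes listed under small stress proteins of budding yeast, with products of 59 to 375 residues, was followed: HSP12, HSP26, HSP42, HSP30, YRO2, MRH1, HOR7, DDR2 and RTC3. They were taken by their systematic names from a table of 7126 genes, and all 9 had enough counts to be among the 6040 genes tested. The members were chosen by their response to salt, which was known from these same libraries, and for HSP12 and HOR7 the difference in that response between the strains was known as well. Salt responses are therefore given as a description with no test for all 9 genes. The comparisons of the strains were tested for the other 7 genes, and HSP12 and HOR7 carry values only.

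The study asked what becomes of the transcriptional response to osmostress when the elongation factor Spt4 cannot be phosphorylated at the residues targeted by the kinase Hog1. The Spt4-AA mutant carried SPT4(T42A/S43A)-TAP::kanMX4, with alanine at both residues, and the wild type (WT) carried SPT4-TAP::kanMX4. Both were BY4741 cells (MATa, with the his3, leu2, met15 and ura3 deletions), so the TAP tag, the marker and the deletions were shared by every group. Cells were grown in YPD at log phase and were collected after 15 min in 0.4 M NaCl or without stress. Poly(A) RNA was sequenced in 3 biological replicates of each of 4 groups: Spt4-AA in NaCl, WT in NaCl, Spt4-AA without stress and WT without stress.

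Most of these genes encode proteins that yeast cells make when they meet heat, salt, ethanol or starvation. Many such genes are switched on by the transcription factors Msn2 and Msn4, which bind the stress response element (STRE), and some by the heat shock factor Hsf1, which binds the heat shock element (HSE). HSP12 encodes a small unfolded protein that associates with membranes, and HSP26 and HSP42 encode the small heat shock chaperones of the alpha-crystallin family, which hold denatured proteins in reach of refolding. HSP30, YRO2 and MRH1 encode related membrane proteins with several predicted helices, of which Hsp30 lowers the activity of the proton pump Pma1. HOR7 and DDR2 are a pair of very short paralogs, one named for hyperosmolarity and the other for DNA damage, and RTC3 encodes a small protein that resembles part of the human SBDS protein.

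The promoters of the salt-induced members are shown because the STRE, written CCCCT or on the other strand AGGGG, was found in some of them and not in others. The 300 bases before each start codon were read on both strands from the RefSeq R64 genome, the assembly that the sacCer3 alignments also used. The window held 3 STREs in HSP42 and in DDR2, 2 in HSP12, 1 in HOR7 and 1 in RTC3. No STRE stood in the windows of HSP26, HSP30, YRO2 or MRH1. Among 6007 promoter windows of the same length, 22.2% held at least 1 STRE, 3.5% at least 2 and 0.5% at least 3. The HSE, searched as GAANNTTC or TTCNNGAA, was found 3 times in HSP42, at overlapping positions 243 to 233 bases before the start codon, and in none of the other 8 windows, against 22.4% of all windows with at least 1. These matches are letters in a window of fixed length and say nothing of binding. The stretch from 300 to 151 bases before the start codon, with the STREs in capitals, follows for the 5 genes that had one and for YRO2, which had none. HSP12 is from chrVI:106956-107105, HSP42 from chrIV:806321-806470, HOR7 from chrXIII:774452-774601, RTC3 from chrVIII:280520-280669 and YRO2 from chrII:342801-342950, all on the + strand, and DDR2 is from chrXV:231906-232055 on the - strand.
HSP12: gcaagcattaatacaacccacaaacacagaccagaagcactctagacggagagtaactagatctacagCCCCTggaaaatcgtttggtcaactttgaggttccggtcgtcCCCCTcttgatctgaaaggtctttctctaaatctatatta
HSP42: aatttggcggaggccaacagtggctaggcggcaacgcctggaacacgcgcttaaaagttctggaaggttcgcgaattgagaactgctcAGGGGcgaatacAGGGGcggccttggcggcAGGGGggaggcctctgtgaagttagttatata
HOR7: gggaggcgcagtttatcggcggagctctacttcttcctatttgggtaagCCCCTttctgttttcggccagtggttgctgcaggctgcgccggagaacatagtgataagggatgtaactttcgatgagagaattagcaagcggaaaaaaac
DDR2: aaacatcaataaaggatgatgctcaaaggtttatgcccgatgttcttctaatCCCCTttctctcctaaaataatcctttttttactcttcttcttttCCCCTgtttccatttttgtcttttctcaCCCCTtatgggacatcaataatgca
RTC3: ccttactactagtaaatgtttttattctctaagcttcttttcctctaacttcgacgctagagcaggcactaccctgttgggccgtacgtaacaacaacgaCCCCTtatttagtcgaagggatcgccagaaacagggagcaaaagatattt
YRO2: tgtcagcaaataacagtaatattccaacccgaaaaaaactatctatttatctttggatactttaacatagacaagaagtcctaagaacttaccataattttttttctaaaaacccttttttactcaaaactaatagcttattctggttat

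**Figure D1:**
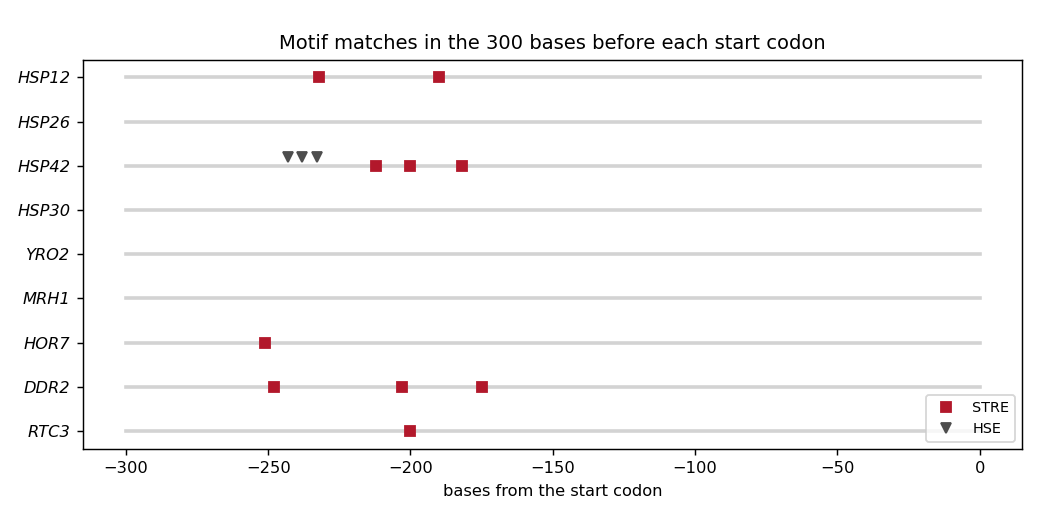
STRE matches (squares) and HSE matches (triangles) in the 300 bases before the start codon of each of the 9 genes, by distance in bases from the start codon. The STREs of HSP12, HSP42, HOR7, DDR2 and RTC3 lie between 251 and 175 bases before the start codon, and the 3 HSEs of HSP42 lie just upstream of its STREs.

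The HSP12 window also overlapped the reading frame YFL015C. In HSP42 the STREs stood at 212, 200 and 182 bases before the start codon, all on the opposite strand. In DDR2 they stood at 248, 203 and 175 bases, in HSP12 at 232 and 190 bases, in HOR7 at 251 bases and in RTC3 at 200 bases. Of the paralogous pairs, the coding sequences of YRO2 and MRH1 were identical at 70.6% of the longer sequence, those of HOR7 and DDR2 at 63.4%, and that of HSP30 at 58.1% with MRH1 and 57.2% with YRO2. The unrelated HSP12 and RTC3 reached 50.0% in the same alignment. Each coding sequence was a single reading frame without an intron and overlapped no other RefSeq gene, and every stretch of 50 bases in it, the read length, occurred once in the genome, so that reads could be told apart between the paralogs.

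The 12 libraries held 12903162 to 21909524 counts. Counts per gene do not show a substitution, so those of SPT4 (245 to 311 in Spt4-AA in NaCl, 299 to 343 in WT in NaCl, 100 to 158 in Spt4-AA without stress and 197 to 334 in WT without stress) do not check the labels. The a cell markers MFA1, MFA2 and STE2 summed to 893 to 1382 CPM (a gene's share of its library on a common scale) in all groups but WT in NaCl, at 623 to 734 CPM, and the alpha cell markers MFALPHA1 and STE3 to at most 5.89 CPM. LEU2, MET17 and URA3, which BY4741 lacks, had 0 to 2 counts in 11 libraries and 139 counts in Spt4-AA in NaCl replicate 2. The near-identical ASP3 copies, which share reads, had 11456 to 20638 counts in the WT libraries, 0 to 5 in the other 5 Spt4-AA libraries and 517 in that same library. ASP3 counts thus differed between the strains in both conditions. The strain differences given below cannot be told apart from differences between the strains other than the substitution, which were not tested. In the labels, the library numbers of Spt4-AA in NaCl replicates 1 and 2 stand apart from those of the other 10 libraries. Values are given below without these libraries where they decide a result.

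The 9 genes together took 0.988% ± 0.115 of the counts in Spt4-AA in NaCl and 1.299% ± 0.014 in WT in NaCl, and 0.172% ± 0.006 in Spt4-AA without stress and 0.242% ± 0.004 in WT without stress (SD, n = 3 each). Levels are given below as CPM scaled by the TMM method, in the order of replicates 1, 2 and 3. A gene is called changed at a Benjamini-Hochberg adjusted p under 0.05 in edgeR's quasi-likelihood test over all 6040 genes. Over these genes 34.9% were called higher and 33.4% lower in NaCl in Spt4-AA, and 36.4% higher and 33.9% lower in NaCl in WT. Between the strains, 0.265% were called higher and 0.563% lower in Spt4-AA without stress, and 24.3% higher and 23.4% lower upon osmostress. Over all genes, the difference in response, which is the log2 salt response in Spt4-AA minus that in WT, was called positive for 15.0% of the genes and negative for 11.0%. A positive value can mean a stronger rise or a weaker fall in the mutant.

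**Figure D2:**
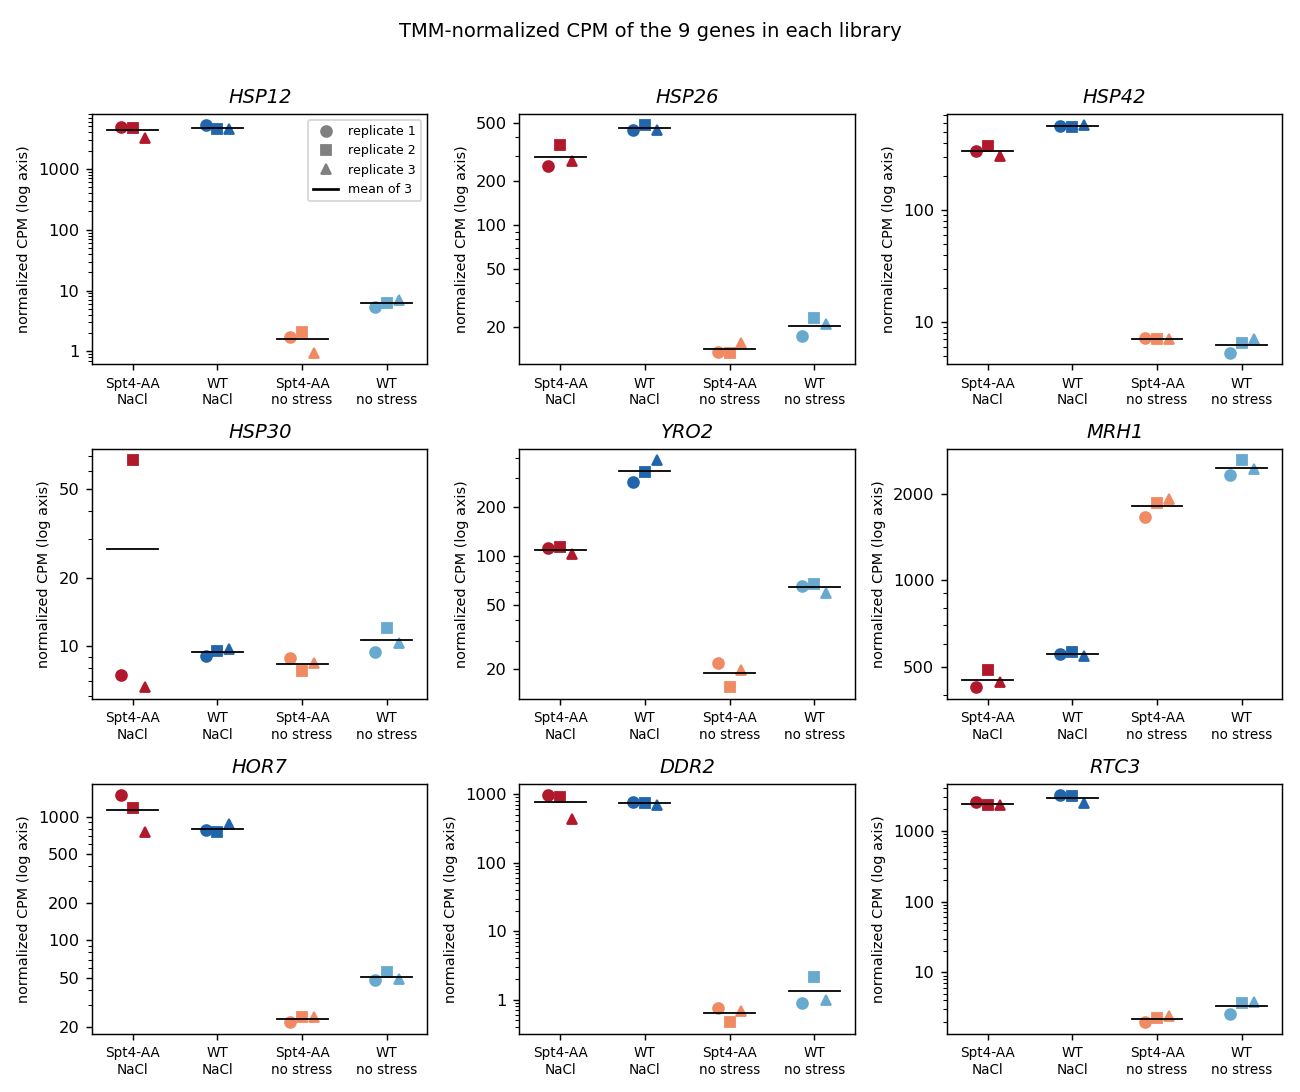
TMM-normalized CPM on log axes of each of the 9 genes in the 12 libraries (circles, squares and triangles for replicates 1, 2 and 3), with the mean of each group as a bar. In NaCl, 7 genes stand above and MRH1 stands below its unstressed levels in both strains, YRO2 is lower in Spt4-AA in both conditions, and HSP30 is high in a single Spt4-AA library.

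HSP12 (YFL014W, chrVI:107256-107585, + strand) had the highest level per length of the 9 in salt. In these bulk libraries, fewer cells with the RNA and less RNA per cell cannot be told apart. Its levels were 4943, 4694 and 3261 CPM in Spt4-AA in NaCl, and 1.71, 2.101 and 0.954 CPM in Spt4-AA without stress. In WT they were 5259, 4527 and 4470 CPM in NaCl, and 5.40, 6.32 and 7.04 CPM without stress. The strains overlapped in salt, where only replicate 3 of the mutant lay below the WT libraries, and did not overlap without stress, where every mutant library was lower. The salt response was 2660-fold in Spt4-AA, the highest rank of all genes tested, and 757-fold in WT. The log2 fold change of Spt4-AA over WT was -0.14 ± 0.18 (SE) upon osmostress and -1.96 ± 0.28 without stress. The difference in response was 1.81 ± 0.33 on the log2 scale, and the unstressed levels rested on 27, 27 and 11 counts in Spt4-AA, against 73, 122 and 115 counts in WT. HSP12 alone made up 0.380% to 0.500% of the counts in Spt4-AA in NaCl and 0.528% to 0.582% in WT in NaCl.

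Both small heat shock chaperones reached lower levels in the mutant in salt. HSP26 (YBR072W, chrII:382030-382674, + strand) had 253, 355 and 274 CPM in Spt4-AA in NaCl, against 452, 484 and 448 CPM in WT in NaCl. All 3 mutant libraries lay below all 3 WT libraries, and the fall of 1.57-fold was called (log2 fold change -0.65 ± 0.13, edgeR adjusted p = 0.000765). Without stress it had 13.5, 13.4 and 15.5 CPM in Spt4-AA, against 17.5, 22.9 and 21.1 CPM in WT. The mutant libraries were again all below the WT libraries, with a log2 fold change of -0.54 ± 0.14 that did not pass the test (edgeR adjusted p = 0.146). The chaperone was 20.8-fold higher in NaCl in Spt4-AA and 22.4-fold higher in NaCl in WT, and the difference between these responses was -0.11 on the log2 scale with a 95% interval of -0.52 to 0.30 (edgeR adjusted p = 0.70).

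HSP42 (YDR171W, chrIV:806621-807748, + strand) differed between the strains in salt and was called in the difference in response, the only one of the 7 tested genes. Its levels were 336, 374 and 304 CPM in Spt4-AA in NaCl, against 565, 547 and 572 CPM in WT in NaCl. The groups were far apart relative to their spread, and the fall of 1.66-fold was called (log2 fold change -0.73 ± 0.10, edgeR adjusted p = 4.04e-05). Without stress the levels were 7.20, 7.004 and 7.02 CPM in Spt4-AA, against 5.33, 6.42 and 7.04 CPM in WT. These overlapped, with a log2 fold change of 0.17 ± 0.13 (edgeR adjusted p = 0.94, 95% interval -0.11 to 0.45). HSP42 was 47.7-fold higher in NaCl in Spt4-AA and 89.1-fold higher in NaCl in WT, and the response was smaller in the mutant by 1.87-fold (log2 difference -0.90 ± 0.16, edgeR adjusted p = 0.00129). The call held with each of the 12 libraries left out (adjusted p from 0.000554 to 0.00501).

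A ratio of the chaperones within 1 library does not depend on how libraries are scaled. HSP26 over HSP42, as counts per kb of coding length, was 3.28, 3.34 and 3.87 in Spt4-AA without stress, against 5.73, 6.25 and 5.25 in WT without stress. The strains did not overlap, and the log2 ratio of Spt4-AA minus WT was -0.72 ± 0.10 (SE). In NaCl the ratio was 1.32, 1.66 and 1.58 in Spt4-AA, against 1.40, 1.55 and 1.37 in WT, with overlapping values. An exact permutation test, two-sided, gave p = 0.1 without stress and p = 0.6 in NaCl, and 3 libraries against 3 cannot go below 0.1.

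**Figure D3:**
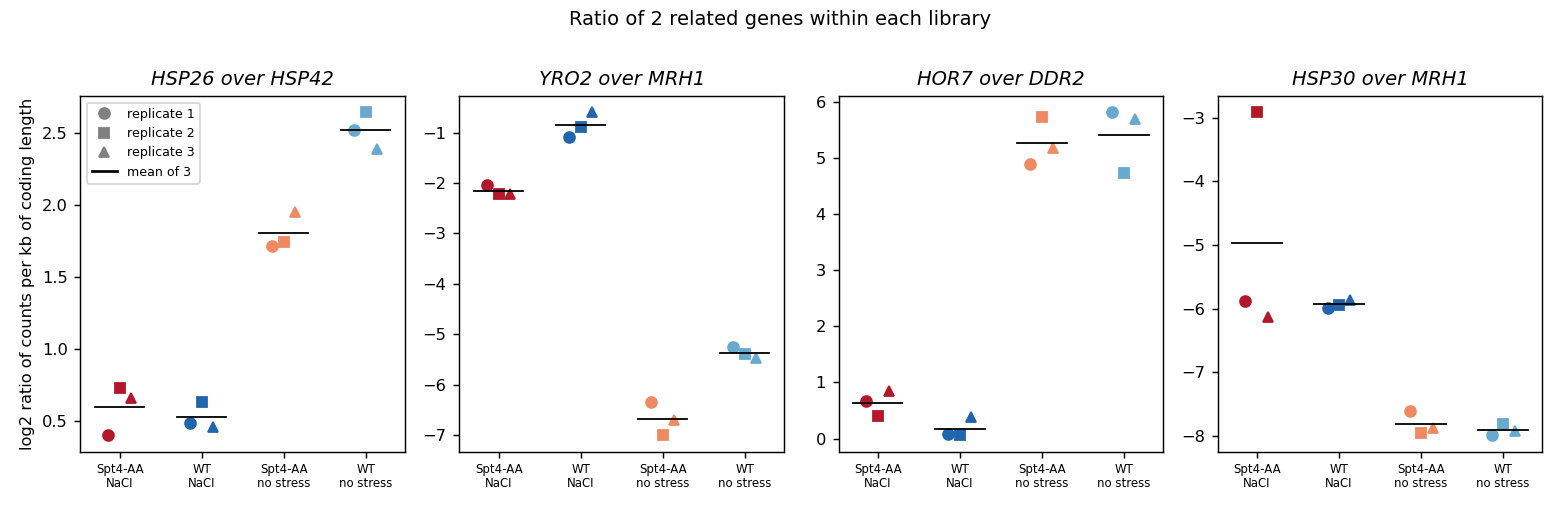
Log2 ratio of counts per kb of coding length of related genes within each library (symbols for replicates 1, 2 and 3, bars for group means). YRO2 over MRH1 is lower in Spt4-AA than in WT in both conditions with no overlap, and HSP26 over HSP42 is lower in Spt4-AA without stress and overlaps WT in NaCl.

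Within the membrane protein family, YRO2 had the lowest adjusted p of the 7 tested genes in both comparisons of the strains. YRO2 (YBR054W, chrII:343101-344135, + strand) had 111, 113 and 102 CPM in Spt4-AA in NaCl, against 282, 327 and 387 CPM in WT in NaCl. Without stress it had 21.9, 15.5 and 19.9 CPM in Spt4-AA, against 65.4, 67.2 and 59.1 CPM in WT. The mutant was below WT in every library of both conditions. The fall was 3.05-fold upon osmostress (log2 fold change -1.61 ± 0.13, edgeR adjusted p = 4.15e-07) and 3.34-fold without stress (log2 fold change -1.74 ± 0.14, edgeR adjusted p = 9.93e-06). Without stress it ranked 16 from the lowest of the 6040 log2 fold changes, and it was the only one called of the 7 genes tested. YRO2 was 5.70-fold higher in NaCl in Spt4-AA and 5.20-fold higher in NaCl in WT, and the difference in response was 0.13 ± 0.19 (95% interval -0.26 to 0.53, edgeR adjusted p = 0.623).

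MRH1 (YDR033W, chrIV:508147-509109, + strand), the paralog of YRO2, was lower in salt where YRO2 was higher. It had the highest level per length of the 9 without stress, with 1662, 1852 and 1908 CPM in Spt4-AA, against 2321, 2614 and 2430 CPM in WT. In NaCl it had 424, 488 and 443 CPM in Spt4-AA, against 554, 563 and 545 CPM in WT. Levels were 4-fold lower in NaCl than without stress in Spt4-AA and 4.43-fold lower in WT. The mutant lay below WT in every library of both conditions, and the fold was smaller than that of YRO2. Upon osmostress the log2 fold change was -0.30 ± 0.11 (edgeR adjusted p = 0.0381), and the call was lost when any of 5 of the 12 libraries was left out (adjusted p from 0.0222 to 0.157 over the 12). Those libraries were Spt4-AA in NaCl replicate 1, WT in NaCl replicates 1, 2 and 3, and WT without stress replicate 3, with adjusted p of 0.157, 0.0727, 0.102, 0.071 and 0.0535. Without stress the log2 fold change was -0.44 ± 0.11 (edgeR adjusted p = 0.108), which passed the test under some other settings named in the closing section. The difference in response was 0.15 with a 95% interval of -0.19 to 0.48 (edgeR adjusted p = 0.503).

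YRO2 over MRH1 within a library, again per kb, was 0.244, 0.216 and 0.215 in Spt4-AA in NaCl, against 0.474, 0.540 and 0.661 in WT in NaCl. Without stress it was 0.0123, 0.00778 and 0.00968 in Spt4-AA, against 0.0262, 0.0239 and 0.0226 in WT. The mutant ratio was below the WT ratio in each condition with no overlap, by -1.30 ± 0.15 upon osmostress and -1.31 ± 0.20 without stress on the log2 scale. The exact permutation test, two-sided, gave p = 0.1 in both conditions, the smallest that 3 against 3 allows, for 4 such tests in all.

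HSP30 (YCR021C, chrIII:156109-157107, - strand), whose protein restrains the proton pump, was high in a single library. In Spt4-AA it had 7.48, 67.1 and 6.57 CPM in NaCl, against 8.85, 7.78 and 8.41 CPM without stress. In WT it had 9.10, 9.54 and 9.74 CPM in NaCl, against 9.47, 12.1 and 10.4 CPM without stress. Salt and no stress overlapped in WT, while in Spt4-AA replicate 2 in NaCl lay above all the unstressed libraries and replicates 1 and 3 lay below them. Spt4-AA in NaCl replicate 2 held 991 HSP30 counts, where the other 11 libraries held 97 to 234. This is the library with 139 counts of LEU2, MET17 and URA3. Of the 6040 genes tested, 5 stood at least 2 on the log2 scale above both other Spt4-AA libraries in NaCl there, HSP30 (by 3.14 on the log2 scale) and the 4 ASP3 copies (by 4.82 to 6.42).

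With that library included, the log2 fold change of HSP30 between the strains upon osmostress was 1.5 ± 0.69 (edgeR adjusted p = 0.091, 95% interval 0.00 to 3.00). Without it the value was -0.43 (edgeR adjusted p = 0.0548). When Spt4-AA in NaCl replicate 1 or 3 was left out instead, so that replicate 2 weighed more, the values were 1.96 and 1.97 (adjusted p = 0.017 and 0.0122). The difference in response was 1.86 ± 0.99 with it (edgeR adjusted p = 0.187), -0.07 without it (adjusted p = 0.848), and 2.32 (adjusted p = 0.038) without Spt4-AA in NaCl replicate 3. The salt response in Spt4-AA was likewise 1.68 on the log2 scale with the library and -0.25 without it. Without stress the log2 fold change was -0.36 ± 0.72 (edgeR adjusted p = 0.997). The fit shares its spread over all 12 libraries, so this SE also holds the high library in NaCl. Every mutant library without stress lay below every WT library without stress. With only the groups compared, the value was -0.347 (edgeR adjusted p = 0.407). HSP30 over MRH1 per kb was 0.0170, 0.1325 and 0.0143 in Spt4-AA in NaCl, against 0.0158, 0.0163 and 0.0172 in WT in NaCl. Without stress it was between 0.00405 and 0.00513 in Spt4-AA and between 0.00393 and 0.00447 in WT. The part of another strain's RNA in the HSP30 value was not tested.

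HOR7 and DDR2 encode proteins of 59 and 61 residues and are the shortest of the 9 genes. HOR7 (YMR251W-A, chrXIII:774752-774931, + strand) had 1502, 1168 and 752 CPM in Spt4-AA in NaCl, and 21.7, 23.8 and 24.2 CPM in Spt4-AA without stress. In WT it had 779, 752 and 879 CPM in NaCl, and 48.1, 55.8 and 49.1 CPM without stress. In salt the mutant replicates 1 and 2 exceeded all WT libraries and replicate 3 was level with the lowest, while without stress all mutant libraries lay below WT. The salt response was 49.1-fold in Spt4-AA and 15.7-fold in WT. The log2 fold change of Spt4-AA over WT was 0.51 ± 0.18 upon osmostress and -1.14 ± 0.20 without stress, and the difference in response was 1.64 ± 0.27.

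DDR2 (YOL052C-A, chrXV:231570-231755, - strand), among the genes in which the STRE was first described, had few counts without stress. It had 976, 918 and 433 CPM in Spt4-AA in NaCl, against 760, 747 and 699 CPM in WT in NaCl. Without stress it had 0.758, 0.467 and 0.694 CPM in Spt4-AA (12, 6 and 8 counts), against 0.888, 2.17 and 0.979 CPM in WT (12, 42 and 16 counts). In salt the mutant libraries lay on both sides of WT, with replicate 3 the lowest of all 6. The salt response was 1190-fold in Spt4-AA and 520-fold in WT, both against these low counts. Neither strain comparison passed the test, with log2 fold changes of 0.08 ± 0.24 upon osmostress (edgeR adjusted p = 0.808, 95% interval -0.43 to 0.58) and -1.11 ± 0.60 without stress (edgeR adjusted p = 0.788). The value in salt changed sign with the libraries and the scaling. It was -0.171 with scaling by library totals and -0.319 with scaling to ENO1. It was 0.365 (edgeR adjusted p = 0.0332) without Spt4-AA in NaCl replicate 3, and -0.765 (adjusted p = 0.00715) with a term for the library numbers of replicates 1 and 2, under which the mutant in salt rests on replicate 3. The difference in response was 1.19 ± 0.65 (edgeR adjusted p = 0.189), and 1.48 (adjusted p = 0.00972) without that replicate.

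HOR7 over DDR2 per kb was 1.59, 1.32 and 1.795 in Spt4-AA in NaCl, against 1.06, 1.04 and 1.30 in WT in NaCl. In salt the paralogs were thus within a factor of 1.795 of each other per length in both strains. Without stress the ratio was 29.6, 52.7 and 36.0 in Spt4-AA, against 56.0, 26.5 and 51.8 in WT. HOR7 therefore had a much higher unstressed level than DDR2 in both strains.

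RTC3 (YHR087W, chrVIII:280820-281155, + strand) went with HSP12 and DDR2 in having very low unstressed levels and very high levels in salt. It had 2539, 2331 and 2337 CPM in Spt4-AA in NaCl, and 1.96, 2.26 and 2.43 CPM in Spt4-AA without stress. In WT it had 3208, 3054 and 2431 CPM in NaCl, and 2.59, 3.68 and 3.79 CPM without stress. The strains overlapped in salt, and without stress every mutant library was below WT. Its salt response was 1090-fold in Spt4-AA and 853-fold in WT, rank 3 of all genes tested in WT. The log2 fold change of Spt4-AA over WT was -0.27 ± 0.13 upon osmostress (edgeR adjusted p = 0.11, 95% interval -0.56 to 0.02) and -0.62 ± 0.22 without stress (edgeR adjusted p = 0.382). Upon osmostress it was called when WT in NaCl replicate 3 was left out (-0.385, adjusted p = 0.0373). The difference in response was 0.35 with an interval of -0.20 to 0.90 (edgeR adjusted p = 0.319).

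**Figure D4:**
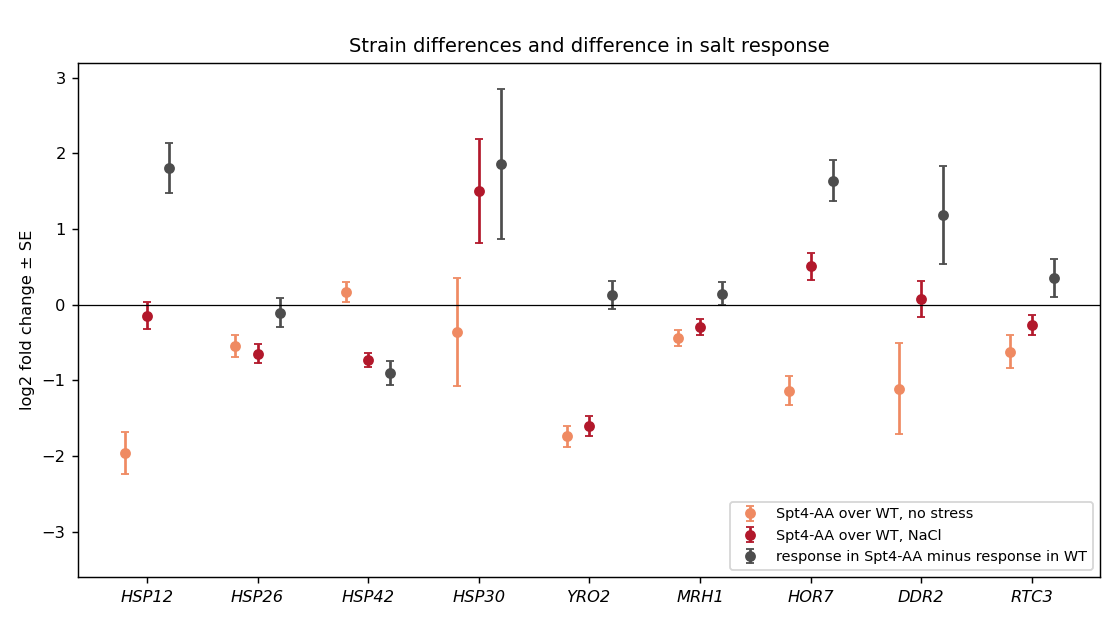
Log2 fold change of Spt4-AA over WT without stress (light red) and in NaCl (dark red), and the response in Spt4-AA minus the response in WT (grey), with SE bars, for the 9 genes. YRO2 is lower by about the same amount in both conditions, HSP42 is lower in NaCl, and HSP12 and HOR7 are lower without stress.

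Across the 7 tested genes, 4 were called lower in Spt4-AA upon osmostress (HSP26, HSP42, YRO2 and MRH1) and 0 higher, beside the 23.4% and 24.3% of all genes. Without stress 1 was called lower (YRO2) beside 0.563% of all genes, and in the difference in response 1 was called negative (HSP42) beside 11.0%. Without stress 6 of the 7 tested genes had a negative log2 fold change, HSP42 being the exception. Their median was -0.54, beside -0.004 over all genes tested. HSP12 and HOR7 were negative too, but their difference in response was known when they were listed. Upon osmostress 5 of the 7 tested genes were negative, with a median of -0.3 beside -0.02 over all genes. Every mutant library lay below every WT library for 8 of the 9 genes without stress, beside 9.47% of all genes tested. The 8 include HSP12 and HOR7, so this count is a description. It also rests on low counts. The nearest libraries of the strains held 12 counts each for DDR2, and 28 in Spt4-AA against 35 in WT for RTC3. Upon osmostress every mutant library lay below every WT library for 4 of the 9 genes, beside 25.3%. Every mutant library lay above every WT library for 0 of the 9 in each condition, beside 6.92% of all genes without stress and 25.3% upon osmostress.

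Levels can be compared between the genes only per length. As CPM per kb of coding length in Spt4-AA in NaCl, the order was HSP12 (13030 ± 2751), RTC3 (7150 ± 352), HOR7 (6336 ± 2089), DDR2 (4169 ± 1604), MRH1 (469 ± 34.2), HSP26 (456 ± 83.3), HSP42 (299.7 ± 31.4), YRO2 (105 ± 5.62) and HSP30 (27.1 ± 34.7) (SD, n = 3). Here RTC3 and HOR7, HOR7 and DDR2, and MRH1 and HSP26 overlapped. In WT in NaCl the order was the same but for HSP26 (716 ± 31.1), which stood above MRH1 (576 ± 9.55), and no neighbours overlapped. Without stress MRH1 led in both strains, at 1877 ± 134 CPM per kb in Spt4-AA and 2549 ± 154 in WT, followed by HOR7 at 129 ± 7.33 in Spt4-AA and 283 ± 23.3 in WT. HSP12 was 8th in Spt4-AA without stress, at 4.81 ± 1.77 CPM per kb, and 5th in WT without stress, at 18.9 ± 2.49.

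The genes whose pattern was most like that of 3 members were found by the root mean square difference of gene-centred log2 CPM over the 12 libraries. HSP12 was nearest to RTC3 (0.646), DDR2 (0.748) and YNL194C (0.94), the first 2 of them members. HOR7 was nearest to ARO9 (0.391) and ARO10 (0.446), which encode enzymes of aromatic amino acid breakdown, and GSY1 (0.473), a glycogen synthase. MRH1 was nearest to URA2 (0.201) of pyrimidine synthesis, FUI1 (0.221), a uridine permease, and SVF1 (0.24). The likeness is a description and rests on the same salt response that was known when the members were listed.

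The other genes of the general stress response were set beside the members. All 26 listed genes were called higher in salt in both strains, beside 34.9% of all genes in Spt4-AA and 36.4% in WT. Their median log2 fold change was 5.40 in Spt4-AA and 5.85 in WT, beside 0.012 and 0.033 over all genes tested. The gene lists here and below were chosen with earlier results of these data known, so their counts and medians are a description. Upon osmostress 20 of the 26 were called lower in Spt4-AA and 0 higher, beside 23.4% and 24.3% of all genes. Their median log2 fold change was -0.77. Their rise in salt was called smaller in Spt4-AA for 13 and larger for 1. Over all genes the difference in response was called negative for 11.0% and positive for 15.0%. The median difference in response of the 26 was -0.56, beside -0.007 over all genes. The most negative were GRE1 (-2.28 ± 0.29, edgeR adjusted p = 7.43e-05), a hydrophilin gene with 73.3 ± 6.44 CPM in Spt4-AA in NaCl against 267 ± 31.1 CPM in WT in NaCl, and SIP18 (-1.94 ± 0.39, adjusted p = 0.00258), with 24.4 ± 1.28 CPM in Spt4-AA in NaCl against 93.9 ± 10.1 CPM in WT in NaCl (SD, n = 3). The highest called were HXK1 (0.63 ± 0.19, adjusted p = 0.0246), a hexokinase gene, and GPH1 (-0.55 ± 0.16, adjusted p = 0.019), the glycogen phosphorylase gene. Without stress 3 of the 26 were called lower and 0 higher, beside 0.563% and 0.265% of all genes. There 22 of the 26 had a negative log2 fold change, with a median of -0.22, so negative values without stress were not particular to the members. The 26 differences in response spanned -2.28 to 1.01. HSP12 and HOR7 had 1.81 and 1.64, values known when they were listed, so their place beside this span is no test. Under the alternatives run, these values spanned 1.413 to 2.039 for HSP12 and 1.04 to 1.87 for HOR7. The span of the 26 was not computed under those alternatives, so the ranges cannot be set against it.

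Of 22 other heat shock chaperone genes, 16 were called higher and 4 lower in salt in Spt4-AA, beside 34.9% and 33.4% of all genes. In WT 16 were called higher and 3 lower, beside 36.4% and 33.9% of all genes. Upon osmostress 11 were called lower and 2 higher in Spt4-AA, beside 23.4% and 24.3% of all genes, with a median of -0.34. The difference in response was called negative for 10 and positive for 0, beside 11.0% and 15.0% of all genes, with a median of -0.43. HSP78 and HSP104, which encode disaggregases of the mitochondria and the cytosol, were the most negative in the difference in response (-1.16 ± 0.15 and -1.08 ± 0.14, edgeR adjusted p = 7.81e-05 and 9.32e-05). HSP104 had 993 ± 54.1 CPM in Spt4-AA in NaCl, against 1753 ± 85.4 CPM in WT in NaCl. The least negative of those called were MDJ1 (-0.53 ± 0.14, adjusted p = 0.0126) and SSC1 (-0.57 ± 0.15, adjusted p = 0.0151), both of the mitochondrial folding machinery. HSP42, at -0.90, lay between these values.

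Among the regulators, upon osmostress MSN4 (log2 fold change -0.85 ± 0.11, edgeR adjusted p = 4.48e-05), HAA1 (-0.65 ± 0.10, adjusted p = 0.00013), HSF1 (-0.67 ± 0.19, adjusted p = 0.00878) and MSN2 (-0.34 ± 0.12, adjusted p = 0.0311) were lower in Spt4-AA, and HOG1 (0.03 ± 0.11, adjusted p = 0.869) was not called. In NaCl, HSF1 had 33.2 ± 5.88 CPM in Spt4-AA and 53.0 ± 14.8 CPM in WT (SD, n = 3). MSN2 had 89.0 ± 11.6 CPM in Spt4-AA in NaCl and 113 ± 14.8 CPM in WT in NaCl. These calls were not repeated without Spt4-AA in NaCl replicates 1 and 2. HAA1 encodes an activator of the weak acid response known to regulate YRO2. Without stress 0 of the 5 were called, HAA1 having 40.1 ± 0.352 CPM in Spt4-AA and 41.0 ± 0.256 CPM in WT. The part of HAA1 in the YRO2 values was not tested. In NaCl, HAA1 had 47.6 ± 6.87 CPM in Spt4-AA and 74.8 ± 2.67 CPM in WT, and its response was smaller in the mutant (-0.62 ± 0.14, adjusted p = 0.00557), as was that of MSN4 (-0.69 ± 0.16, adjusted p = 0.00755). The differences in response of HSF1 (-0.72 ± 0.26, edgeR adjusted p = 0.059) and MSN2 (-0.23 ± 0.17, adjusted p = 0.329) were not called. The proton pump gene PMA1, whose product Hsp30 restrains, had 2704 ± 239 CPM in Spt4-AA in NaCl, against 1892 ± 115 CPM in WT in NaCl, and was lower in salt by less in Spt4-AA (log2 -2.04) than in WT (-2.62), a difference in response of 0.58 ± 0.19 (adjusted p = 0.0349). PMA2 was not called between the strains. The a cell pheromone genes MFA1 and MFA2 were lower in salt by less in Spt4-AA (log2 -0.43 and -0.55) than in WT (-1.51 and -2.32), with differences in response of 1.08 ± 0.22 and 1.77 ± 0.30 (adjusted p = 0.00315 and 0.000913).

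The strain difference upon osmostress ran with coding length, and the 9 genes span 180 to 1128 bases. The 4 genes of up to 400 bases (HOR7, DDR2, HSP12 and RTC3) had log2 fold changes of -0.27 to 0.51, and the 5 longer genes had -1.61 to 1.5. Of these, HSP30 alone was positive, with a value that was negative without Spt4-AA in NaCl replicate 2, and HSP26, HSP42, YRO2 and MRH1 had -1.61 to -0.30. Over the 8 members other than HSP30, Spearman's rho between coding length and the log2 fold change was -0.95, and over all 9 it was -0.62. Without stress it ran the other way, at 0.52 over the 8 and 0.57 over the 9. Over the 5722 tested genes with a RefSeq coding length it was -0.32, and 0.13 without stress. The median log2 fold change upon osmostress was 0.27 for 512 genes of up to 400 bases, 0.10 for 1700 genes of 401 to 1000 bases, -0.02 for 2189 genes of 1001 to 2000 bases and -0.32 for 1321 longer genes. In WT every member but HSP30 and MRH1 had higher levels in NaCl, a direction given here with no test. Among all genes called higher in NaCl in WT, the medians were negative in each bin, at -0.21 for 147 genes, -0.21 for 613, -0.33 for 863 and -0.54 for 484. These points share libraries. Among the short members, HSP12 and HOR7 were listed with their difference in response known, and HSP30 was set aside with its value known. The correlations over the members are therefore a description and no test.

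Over all genes the relation differed between the mutant libraries. In Spt4-AA in NaCl replicates 1, 2 and 3, the log2 ratio to the mean of the WT libraries in NaCl had a rho with coding length of -0.38, -0.38 and -0.08 over the 5722 genes. Over the 9 genes the rho was -0.85, -0.58 and -0.55, and over the 8 other than HSP30 it was -0.88, -0.9 and -0.62. The median log2 ratio over genes of up to 400 bases was 0.38, 0.37 and 0.01. Over those of them called higher in NaCl in WT it was -0.10, -0.18 and -0.34. HOR7 stood at 0.90, 0.54 and -0.10 in these libraries, DDR2 at 0.41, 0.32 and -0.77 and HSP12 at 0.06, -0.02 and -0.54, so that each was lowest in replicate 3. YRO2 stood at -1.58, -1.55 and -1.70, HSP42 at -0.74, -0.58 and -0.89, and RTC3 at -0.19, -0.31 and -0.31, much closer together. Replicates 1 and 2 are those whose library numbers stand apart. With a term for these numbers, the log2 fold change of HOR7 upon osmostress was -0.096 and that of HSP12 -0.54, while YRO2 (-1.70, edgeR adjusted p = 2.74e-05) and HSP42 (-0.89, adjusted p = 0.000144) stayed called. Library number and replicate cannot be told apart here, and the part of coding length in the values of HOR7, DDR2 and HSP12 in salt was not tested.

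**Figure D5:**
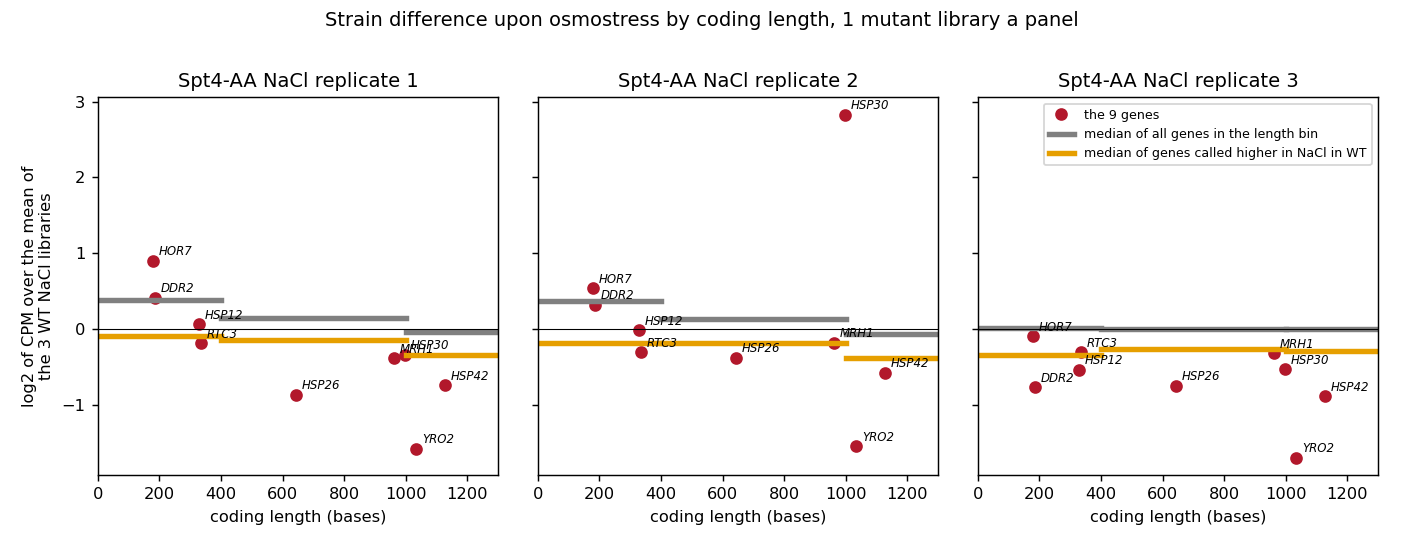
Log2 ratio of CPM in each Spt4-AA library in NaCl to the mean of the 3 WT libraries in NaCl, against coding length in bases, for the 9 genes (points) and as medians in each length bin over all tested genes (grey bars) and over genes called higher in NaCl in WT (orange bars). The short genes HOR7, DDR2 and HSP12 lie lower in replicate 3 than in replicates 1 and 2, where the bin of up to 400 bases has medians of 0.38 and 0.37 over all genes and -0.10 and -0.18 over the salt-induced genes, and YRO2 lies between -1.55 and -1.70 in all 3 panels.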

How the data were processed

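Wild type and Spt4-AA cells were sequenced as 50 base single reads from stranded poly(A) libraries. Per the study's methods and the submitters' processing notes, the authors aligned reads with TopHat2 2.1.0 to sacCer3 and counted unique reads per Ensembl R64-1-1 gene with featureCounts 1.5.1 (strand setting not given in the sources used here), and tested with DESeq2 1.14.1. The deposited counts are raw whole numbers for 7126 genes, of which 179 had no count. Groups and replicates came from the sample labels. Counts of 6040 genes that passed filterByExpr were fitted with edgeR 4.0.16 in R 4.3.3 (TMM, 1 coefficient per group over all 12 libraries, robust quasi-likelihood test, Benjamini-Hochberg adjustment over all genes). The fit was tested on simulated data. Totals of 12903162 to 21909524 counts gave a median SE of 0.142 for a strain difference upon osmostress and 0.202 for a difference in response, on the log2 scale. Intervals are at 95% from this fit.

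The members and the gene lists were chosen with earlier results of these data known. Besides the 9 members, the text names the 3 genes nearest in pattern to HSP12, HOR7 and MRH1, the 2 highest and 2 lowest called differences in response of each list, the regulators, SPT4 and the strain markers; ENO1 served for scaling, and the ASP3 copies were named after their values were seen. Coding lengths, promoter windows of 300 bases and shared 50 base stretches came from the RefSeq R64 genome and annotation. Every pair of replicates differed beyond counting noise. Alternatives were DESeq2 1.42.0, RLE factors, library totals, ENO1 scaling, other count filters, a replicate block, a term for library numbers, only the groups compared, a 2-fold limit and each library left out. CPM are shares of a library, so amounts of RNA per cell were not measured.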

Additional observations from a re-analysis of the deposited data

Results flagged for a closer look

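HSP42 differed between the strains in its response to salt: the difference in response was -0.90 on the log2 scale (edgeR adjusted p = 0.00129), with 47.7-fold higher levels in NaCl in Spt4-AA and 89.1-fold in WT, and with every Spt4-AA library in NaCl below every WT library in NaCl.

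LEU2, MET17 and URA3, which the strain background lacks and which enter no comparison, had 139 counts in Spt4-AA in NaCl replicate 2, where the other 11 libraries had 0 to 2. The same library held 991 counts of HSP30, against 97 to 234 in the others.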

How the results depend on the processing

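The strain differences of YRO2 in both conditions, of HSP42 upon osmostress and in the response, and of HSP26 upon osmostress kept their direction and their side of the threshold under every alternative run for single genes. MRH1 upon osmostress was no longer called with RLE factors (-0.27, edgeR adjusted p = 0.088), the library-number term (-0.32, 0.0955) or only the groups compared (-0.29, 0.0863); without stress it was called with DESeq2 (-0.42, 0.00284), library totals (-0.46, 0.0158), that term (-0.44, 0.0334), only the groups compared (-0.43, 0.0147) and without Spt4-AA in NaCl replicate 3 (-0.44, 0.034). HSP26 without stress was called with library totals (-0.55, 0.0416) and without Spt4-AA in NaCl replicate 2 (-0.55, 0.0345), and RTC3 upon osmostress with library totals (-0.47, 0.00483) and ENO1 scaling (-0.57, 0.0153). With the library-number term HOR7 upon osmostress was -0.096 and the HSP30 salt response in Spt4-AA -0.347 (-0.25 to 2.145 with 1 library left out). The causes were not tested.

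Scaling by library totals moved the median of all genes by 0.38 in the WT salt response, 0.16 in that of Spt4-AA, -0.22 between strains upon osmostress and -0.20 in the difference in response, and scaling to ENO1 by -0.49, -0.81, -0.33 and -0.31. The share of calls that were higher was 67.4% and 26.7% for the WT salt response (51.8% as reported), 60.9% and 13.9% in Spt4-AA (51.1%), and 33.6% and 29.6% between strains upon osmostress (50.9%). ENO1 was itself called higher in NaCl, by 0.53 ± 0.18 in WT (edgeR adjusted p = 0.0156) and 0.89 ± 0.18 in Spt4-AA (adjusted p = 0.00045). Between the strains upon osmostress ENO1 stood at 0.37 ± 0.18 (adjusted p = 0.0934). Scaling to ENO1 is therefore no neutral reference for the values in salt.

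Of the tested members, those called lower without stress numbered 2 with DESeq2, the library-number term or only the groups compared and 3 with library totals, against 1 as reported; leaving out 1 library gave 1 to 2. Upon osmostress leaving out 1 library gave 3 to 4 lower and 0 to 2 higher, and in the response 1 lower and 0 to 2 higher. A 2-fold limit left 1 lower upon osmostress and 0 in the response. Calls over all genes numbered 4248 (WT salt response), 4127 (Spt4-AA salt response), 50 (strains without stress), 2879 (strains upon osmostress) and 1568 (difference in response). With the 2-fold limit they numbered 2234, 1848, 29, 661 and 566. With the library-number term they numbered 1460 upon osmostress and 866 in the response, and with ENO1 scaling 550 in the response. Without stress they numbered 79 with DESeq2, 30 with ENO1 scaling, 31 with at least 10 counts in every library (which leaves out DDR2) and 80 with only the groups compared. Leaving out 1 library gave 3984 to 4446, 3799 to 4225, 24 to 72, 2301 to 3421 and 1175 to 2394 calls, the highest without Spt4-AA in NaCl replicate 3. With 1 library left out, the log2 ratio of YRO2 over MRH1 kept its direction in both conditions. So did HSP26 over HSP42 without stress and HOR7 over DDR2 in NaCl (0.359 to 0.584). HSP26 over HSP42 in NaCl, where the strains overlapped, spanned 0.004 to 0.169. HSP30 over MRH1 in NaCl was 0.953, and -0.076 without Spt4-AA in NaCl replicate 2. Without stress HOR7 over DDR2 spanned -0.491 to 0.049 and HSP30 over MRH1 -0.007 to 0.163.

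Same-numbered samples correlated at -0.438 to 0.416, 9 of 18 above 0.1, so the replicate number was not taken as a pairing. With it as a block, calls numbered 4302, 4171, 37, 2991 and 1631, and no tested member changed its call (4 lower upon osmostress).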
